A study of Mus musculus with 6 samples.

Results

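The 236 regions described here were the 500 kb bins of the mouse autosomes whose compartment score was lowest in AraC-treated myotubes relative to myotubes. They were chosen by that measured difference, as the 5% of bins with the most negative value, from 4727 bins with data in all 3 deposited matrices, so their lower score after AraC is a description and not a finding. Genome-wide chromatin contacts had been captured by Hi-C after HindIII digestion in C2C12 cells, a mouse myoblast line, in 3 conditions: proliferating myoblasts (day 0, after 72 h of proliferation), myotubes after 3 days of differentiation, and myotubes kept until day 7 with 10 µg/ml AraC, which was added on day 3 and replaced on day 5. Cytosine arabinoside (AraC) is a cytidine analogue that stops DNA synthesis and kills dividing cells, and it was used because differentiated cultures still hold undifferentiated myoblasts. Each condition had 2 cultures from separate vials of this 1 line, but the authors pooled them into 1 matrix, so no difference between conditions has a replicate error and no test between conditions could be made. In pooled cultures a loss of dividing cells, a change within the remaining cells and the longer time in culture cannot be told apart. The matrices hold correlation coefficients and no read counts, so the depth behind a bin is unknown.

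At a coarse scale, chromosomes separate into an A compartment, which is rich in genes, active and replicated early, and a B compartment, which is poor in genes, mostly silent, replicated late and often attached to the nuclear lamina. The first principal component (PC1) of the contact correlations along a chromosome separates the compartments. Its sign was set here so that bins rich in protein-coding gene starts were positive, a positive bin being called A and the others B, and PC1 was divided by its standard deviation on each chromosome in each condition. A scaled PC1 of 1 therefore lies 1 standard deviation of that chromosome's PC1 above 0. During myogenesis myoblasts leave the cell cycle, fuse and switch on muscle genes, while many genes of proliferating cells are turned down.

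The start regions of 6 genes illustrate the range of promoters in these bins, from 3 gene-rich bins that stayed in A and from 3 bins with 1 protein-coding gene each. Each sequence is the 200 bases before the RefSeq start on the gene's strand (GRCm38.p6) and lies outside the annotated exons, and capitals mark CG dinucleotides. The genes were picked after their values were seen. Chaf1a encodes a subunit of the chromatin assembly factor that loads histones behind the replication fork (chr17:56040216-56040415, + strand). Icam1 encodes an adhesion molecule for leukocytes (chr9:21015740-21015939, + strand), and Cdkn1b encodes the cell cycle inhibitor p27 (chr6:134920201-134920400, + strand). Col3a1 encodes the fibrillar collagen type III chain (chr1:45311338-45311537, + strand), Inhba encodes the activin A subunit (chr13:16011651-16011850, + strand), and Pdgfc encodes a platelet-derived growth factor (chr3:81036216-81036415, + strand).
Chaf1a: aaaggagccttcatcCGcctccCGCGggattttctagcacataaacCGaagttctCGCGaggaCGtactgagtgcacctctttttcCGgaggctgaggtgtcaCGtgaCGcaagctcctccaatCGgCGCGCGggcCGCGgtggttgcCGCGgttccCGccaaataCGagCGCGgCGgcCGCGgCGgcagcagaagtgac
Icam1: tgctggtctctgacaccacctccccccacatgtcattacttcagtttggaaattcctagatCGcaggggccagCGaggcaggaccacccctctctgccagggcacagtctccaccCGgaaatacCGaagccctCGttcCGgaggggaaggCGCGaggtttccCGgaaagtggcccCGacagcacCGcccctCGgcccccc
Cdkn1b: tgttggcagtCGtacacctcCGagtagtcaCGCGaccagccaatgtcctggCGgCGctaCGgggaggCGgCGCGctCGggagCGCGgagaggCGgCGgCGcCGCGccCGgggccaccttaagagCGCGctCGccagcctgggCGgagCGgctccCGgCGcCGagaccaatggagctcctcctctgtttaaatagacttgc
Col3a1: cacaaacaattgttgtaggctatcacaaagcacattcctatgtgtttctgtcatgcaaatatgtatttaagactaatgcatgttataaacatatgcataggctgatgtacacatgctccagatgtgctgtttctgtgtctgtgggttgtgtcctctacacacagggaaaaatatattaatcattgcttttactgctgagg
Inhba: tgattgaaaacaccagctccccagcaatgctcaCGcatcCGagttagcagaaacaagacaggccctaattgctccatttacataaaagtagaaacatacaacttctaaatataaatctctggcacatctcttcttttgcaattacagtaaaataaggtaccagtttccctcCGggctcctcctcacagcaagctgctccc
Pdgfc: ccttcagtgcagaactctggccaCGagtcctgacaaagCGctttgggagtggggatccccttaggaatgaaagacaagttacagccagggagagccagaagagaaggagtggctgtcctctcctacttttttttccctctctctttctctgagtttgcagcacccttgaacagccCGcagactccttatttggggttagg

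These windows held 26 CG dinucleotides at Chaf1a, 27 at Cdkn1b and 12 at Icam1, but 3 at Inhba, 3 at Pdgfc and none at Col3a1. Of 32841 windows of the same length before RefSeq starts, 10.6% held no CG, and 95.5% held as few as Chaf1a or fewer. The letters TATAAA, searched on both strands, were present at Col3a1 and Inhba and in 9.96% of all windows. They were in 7.17% of the windows of genes in the members and in 8.81% of those of genes in all bins, so these examples are not typical. Over the whole set, the 1465 windows of genes in the 236 bins had a median of 12 CG, those of genes in any A bin of myotubes 11, and the 28 windows of genes in single-gene members had 9.5 beside 9 for genes of single-gene bins in general.

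The regions had mostly been A before AraC. In myoblasts, a condition that the choice of members did not use, their median scaled PC1 was 0.69, with an interquartile range of 0.22 to 1.31, whereas the median of all bins was -0.35. Of the 236 bins, 202 (85.6%, exact binomial 95% interval 80.5 to 89.8, covering counting error only) were A in myoblasts, beside 38.2% of all bins. In myotubes 203 of them were A (86.0%) and the median was 0.57. In AraC-treated myotubes 141 were A (59.7%) and the median was 0.20, while the median of all bins, -0.41 in myotubes, was -0.43. Single members after AraC ranged from -1.13 to 2.44, so the median near 0 does not place each of them at the border between compartments. The median difference between AraC-treated myotubes and myotubes was -0.36 in the members and -0.01 in all bins, whose standard deviation was 0.19. The median difference between myotubes and myoblasts was 0.00 in the members, 118 of them being higher and 118 lower in myotubes. That between AraC-treated myotubes and myoblasts was -0.38, which the choice of bins with low scores after AraC favours.

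**Figure D1:**
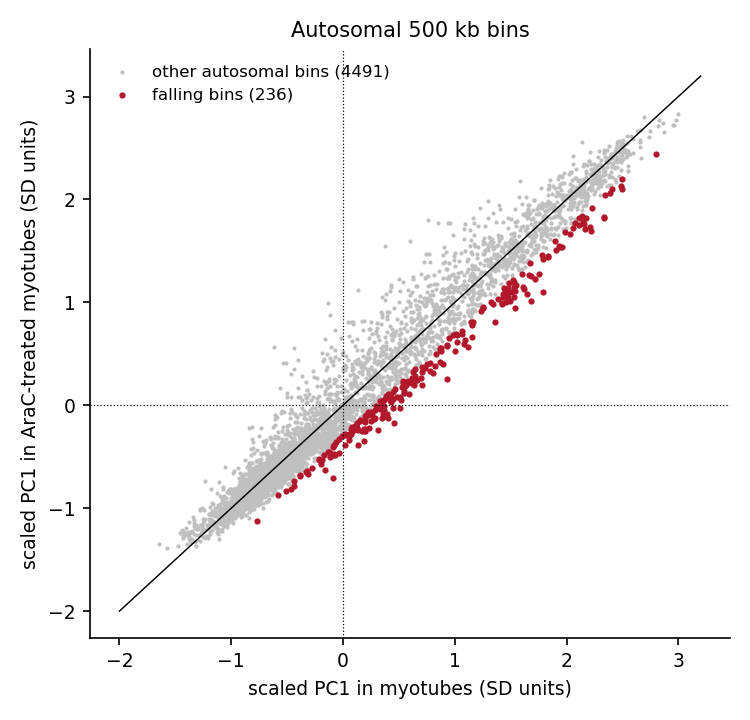
Scaled PC1 (SD units) of each autosomal 500 kb bin in myotubes (horizontal axis) and in AraC-treated myotubes (vertical axis), with the 236 falling bins in red and the other 4491 bins in grey. The line marks equal values and the dotted lines mark 0; most red points lie on the A side in myotubes, and 62 of them lie in the lower right quadrant, A in myotubes and B after AraC.

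Sorted by compartment, 141 of the 236 bins were A both in myotubes and after AraC, 62 changed from A to B and 33 were B in both. Over all bins, 3.05% changed from A to B in this contrast, a share that the choice of members raises by itself in the members (26.3%). Of the 62, 51 had also been A in myoblasts and 11 had been B there. Their scores were small on both sides, with a median of 0.20 in myotubes and -0.17 after AraC. Of the 135 members with an absolute scaled PC1 above 0.2 in both conditions, 3 changed from A to B. Over all bins above that limit in both conditions, the same 3 did, of 4050 (0.0741%). A bin that crosses so far falls by more than the choice requires. It is a member by construction, so these shares cannot be compared. From myoblasts to AraC-treated myotubes, 62 members changed from A to B (26.3%), beside 6.49% of all bins. The choice favours low scores after AraC, so it raises this share in the members too. The 141 bins that stayed A had a median of 1.13 in myoblasts, 1.25 in myotubes and 0.92 after AraC. The 33 bins that were B in both had medians of -0.15, -0.17 and -0.53, and 11 of them had been A in myoblasts.

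**Figure D2:**
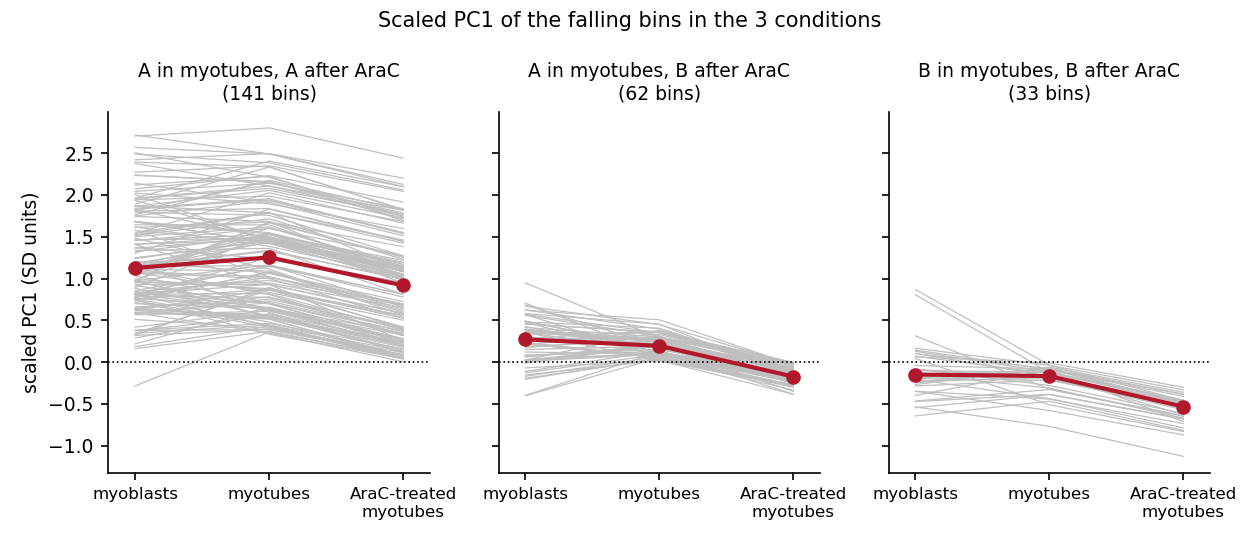
Scaled PC1 (SD units) of the 236 falling bins in each condition (horizontal axis), in 3 panels by the compartment in the last 2 conditions. Each grey line is 1 bin and the red line joins the medians; the medians of the 62 bins in the middle panel were 0.27, 0.20 and -0.17.

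The lowest change of all was that of chr14:30500001-31000000, which holds the starts of Tkt, an enzyme of the pentose phosphate pathway, Prkcd, a protein kinase C, and Mustn1, a nuclear protein of muscle and skeleton. Its scaled PC1 was 1.55 in myoblasts, 1.79 in myotubes and 1.10 after AraC, so it remained well inside A. The second, chr17:56000001-56500000, holds 20 protein-coding starts, among them Chaf1a and Uhrf1, whose product brings DNA methyltransferase 1 to newly replicated DNA. It had 0.93 in myoblasts, 0.93 in myotubes and 0.26 after AraC. The third, chr9:21000001-21500000, with Icam1, the cytokine receptor kinase gene Tyk2 and Keap1, the sensor of oxidative stress, had 1.74, 1.69 and 1.02. All 3 bins stayed on the A side, and their differences between AraC-treated myotubes and myotubes were -0.69, -0.67 and -0.67.

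The fourth bin, chr9:20500001-21000000, adjoins the third and holds Dnmt1, the maintenance DNA methyltransferase, and Col5a3, a type V collagen chain. It was A in myoblasts (0.58) and in myotubes (0.45) and B after AraC (-0.18). The fifth, chr13:60000001-60500000, has 1 protein-coding start, that of Gas1, a membrane protein first known from growth-arrested fibroblasts. It was B throughout, at -0.40, -0.09 and -0.71, its myotube value being the highest of the 3. The sixth, chr12:8500001-9000000, holds Rhob, a small GTPase, Sdc1, the cell surface proteoglycan syndecan-1, and Matn3, a cartilage matrix protein, and had 1.67, 1.54 and 0.95.

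The next 6 had differences between -0.56 and -0.54. They were chr3:27500001-28000000 with Fndc3b and the phospholipase gene Pld1, chr3:68500001-69000000 with the interleukin gene Il12a, chr14:121000001-121500000 with Farp1 and Stk24, chr17:79000001-79500000 with Prkd3, Qpct and Cdc42ep3, chr12:31000001-31500000 with the laminin chain gene Lamb1, and chr3:109000001-109500000 with Vav3, a guanine nucleotide exchange factor. The bins of Il12a, Lamb1 and Vav3 changed from A to B. That of Lamb1 stepped down over both intervals, from 0.68 in myoblasts to 0.19 in myotubes and -0.35 after AraC, whereas that of Vav3 was 0.62, 0.51 and -0.03. At the other end, the last 2 bins included were that of Adgrl2 (chr3:148500001-149000000, -0.2909) and that of Hbegf with part of the alpha protocadherin cluster (chr18:36500001-37000000, -0.2906), and the first 2 left out were that of Slit2 (chr5:47500001-48000000, -0.2890) and that of Myom1 (chr17:71000001-71500000, -0.2883). No gap separates these values, and the limit of 5% is arbitrary.

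The regions lay in short stretches of A. In myoblasts, the median length of the unbroken A stretch that held a member was 2.25 Mb, against 4.5 Mb for all A bins, and 27.7% of the members in A lay in stretches of at most 1 Mb, against 12.3% of all A bins. A B bin was adjacent to 122 of the 202 members that were A in myoblasts (60.4%) and to 35.0% of all A bins there. In myotubes the shares were 64.5% and 34.2%. The 117 A bins of myoblasts that belonged to the 5% with the highest difference after AraC stood at the other end, with a median stretch of 5.5 Mb and 29.1% next to a B bin. These shares compare single matrices and carry no test, and neighbouring bins are not independent of each other.

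**Figure D3:**
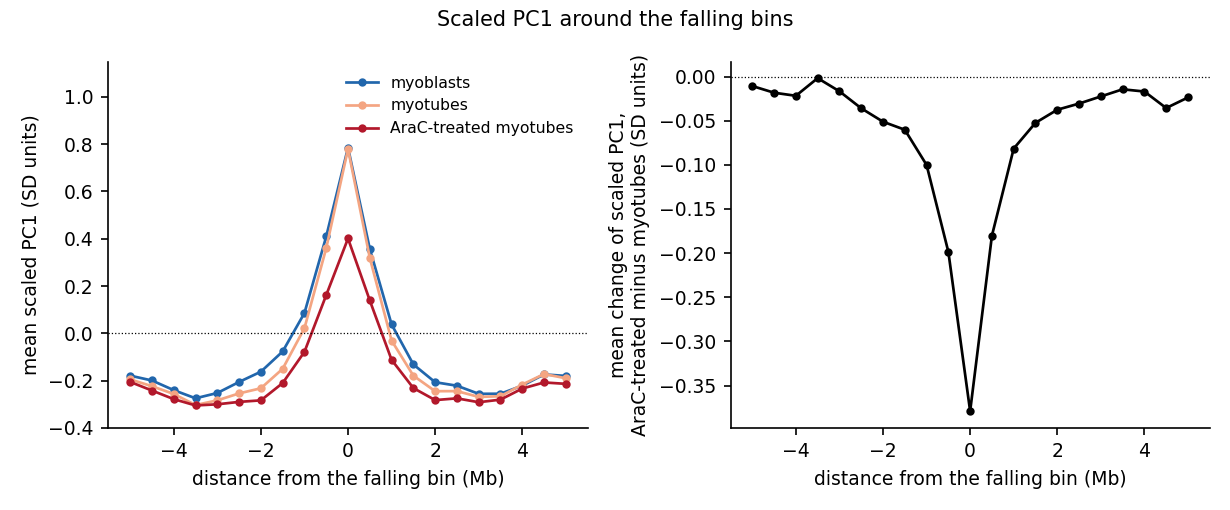
Mean scaled PC1 (SD units) at distances of up to 5 Mb from the 236 falling bins in the 3 conditions (left), and the mean difference between AraC-treated myotubes and myotubes (right). The mean at the bin itself was 0.79 in myoblasts, 0.78 in myotubes and 0.40 after AraC, and at 1.5 Mb on either side the mean was below 0 in each condition.

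Around the members, the mean difference was -0.38 at the bin, -0.20 and -0.18 in the adjacent bins and -0.05 and -0.04 at 2 Mb on either side. Of the 325 other bins that adjoined a member, 262 (80.6%) had a lower score after AraC, beside 52.8% of all bins. The 236 bins formed 171 separate runs, of which 126 were a single bin and 1 reached 5 bins. By comparison, the 236 bins with the highest difference formed 109 runs, of up to 12 bins.

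The longest run spanned chr12:8000001-10500000. It includes Rhob, Sdc1, Matn3 and Osr1, a transcription factor of mesenchymal progenitors, and its mean scaled PC1 was 1.06 in myoblasts, 0.83 in myotubes and 0.39 after AraC. The run of 4 bins at chr9:20500001-22500000 is far richer in genes, with 73 protein-coding starts against 14, and holds Dnmt1, Icam1, Tyk2, Keap1, Smarca4, which encodes an ATPase of SWI/SNF chromatin remodelling complexes, and Carm1, an arginine methyltransferase. Its mean was 1.33, 1.24 and 0.71, and the bin before it had a difference of -0.01. The run at chr3:37000001-39000000, with Fgf2, a mitogen of myoblasts, and Spry1, an inhibitor of its signalling, had means of 1.03, 1.10 and 0.71. Among the runs of 3 bins, chr13:16000001-17500000 holds a single protein-coding start, that of Inhba, and its mean was 0.67, 0.57 and 0.13, while chr3:121000001-122500000, which includes the tissue factor gene F3, had 1.31, 1.41 and 0.98.

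Chromosomes contributed unevenly. Of the members, 30 were on chr 3 (9.62% of its bins), 23 on chr 6, 20 on chr 12 and 19 on chr 9, together 39.0% of the members from 22.6% of the bins. There were 5 each on chr 2, chr 7 and chr 10, 2 on chr 19 and none on chr 11. The standard deviation of the difference was 0.25 on chr 3 and 0.24 on chr 12 but 0.12 on chr 11, where PC1 took up 90.3% of the variance in myotubes, compared with 60.7% on chr 3. A fixed limit on the scaled difference therefore reaches chromosomes to different extents. Chr 17 had 12 members but 26 of the bins with the highest difference. The share within 10 Mb of the last base of a chromosome was 8.47% of the members and 7.85% of all bins.

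**Figure D4:**
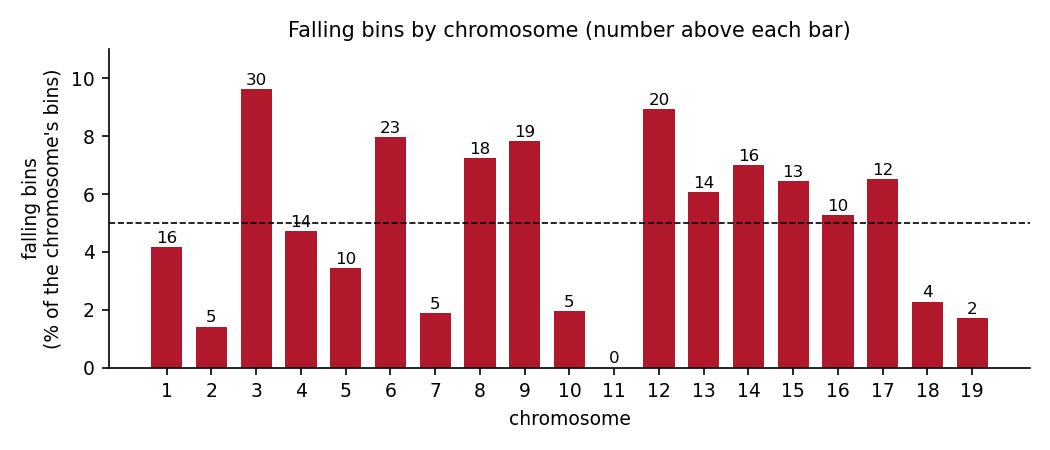
Falling bins as a percentage of the autosomal bins of each chromosome, with their number above each bar. The dashed line is the 5% that the choice fixes over all autosomes; chr 3 reached 9.62% and chr 11 had none.

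The contact profile of a bin, its coefficients with all other bins of its chromosome, gives a view of single bins that does not pass through PC1. Between myotubes and AraC-treated myotubes the median Pearson correlation of profiles was 0.81 in the members and 0.95 in all bins, and 11 members (4.66%) had a correlation below 0, beside 1.16% of all bins. Since this measure comes from the contrast that chose the members, it is given only as a description. The lowest was that of the Col3a1 bin, chr1:45000001-45500000, at -0.43, although it had been 0.67 between myoblasts and myotubes. The scaled PC1 of that bin was 0.67, 0.45 and -0.03. Next came chr13:17000001-17500000, which has no protein-coding start and lies in the Inhba run, at -0.39, chr8:49000001-49500000, also without one, at -0.31, chr4:64000001-64500000 with Tnc, the matrix glycoprotein tenascin-C, at -0.23, and chr5:97500001-98000000, without one, at -0.20. In these 5 bins the correlation between myoblasts and myotubes was between 0.54 and 0.70, but they were picked for their low correlation with the AraC-treated cells, and over all members the median was 0.76 between myoblasts and myotubes, below the 0.81 given above.

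Between myoblasts and myotubes, a pair of matrices of which the choice used 1, 10 members (4.24%) had a profile correlation below 0, beside 3.26% of all bins. Between myoblasts and AraC-treated myotubes, a pair of which the choice also used 1, the count was 40 (16.9%), beside 5.8%. The median correlation of the members was 0.76 in the first of these pairs and 0.56 in the second, against 0.88 and 0.84 in all bins.

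Coefficients with other chromosomes, which do not enter PC1, were also read. The mean coefficient of each bin with 722 core A bins and with 610 core B bins on other chromosomes was taken, the cores being bins in the upper or lower 20% of scaled PC1 in all 3 conditions, without the members. The median coefficient of the members with core A was 0.045 in myotubes and -0.0014 after AraC, and that with core B was -0.035 and -0.0089. With core A the coefficient was lower after AraC in 236 of 236 members, and with core B it was higher in 233. These counts are given without a share over all bins, so they do not set the members apart from other bins. Since coefficients between chromosomes had a standard deviation of 0.089 in myotubes and 0.073 after AraC, the difference between core A and core B was also divided by it. Its median in the members was then 1.52 in myoblasts, 0.91 in myotubes and 0.12 after AraC, and it was lower after AraC than in myotubes in all 236 members, beside 43% of all bins. This difference between AraC-treated myotubes and myotubes comes from the contrast and the pooled libraries that chose the members, and is a description. Between myoblasts and myotubes the median of the core difference was lower while the median difference of scaled PC1 was 0.00.

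The members contained the starts of 1512 of the 20360 protein-coding genes of the autosomal bins (7.43%), with a median of 4 per bin against 2 in all bins and 5 in all A bins of myotubes. Bins with no protein-coding start made up 10.6% of the members and 24.3% of all bins, and 7.97% of the bins with 10 or more starts were members. The median GC content was 43.3% in the members, 41.7% in all bins and 44.3% in all A bins of myotubes, and both medians depend on the choice: members chosen on unscaled PC1 had a median of 10 starts and 46.9% GC, and members chosen with ranked coefficients had 2 starts and 42.2%. The median share of repeat-masked bases was 29.0%, 31.5% and 28.4%. HindIII sites, which set where contacts can be captured, numbered 312 per Mb in the members, 324 in all bins and 306 in all A bins. Of the fifth of bins with the fewest HindIII sites, 7.79% were members, compared with 3.92% of the fifth with the most, and the part of this in the result was not tested. Within the members, the 62 that changed from A to B had a GC content of 42.0% and 3 starts per bin, and the 141 that stayed A had 44.0% and 5.

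Genes of the extracellular matrix were in the members by their start in 8 of 40 cases (20%), beside 7.43% of all protein-coding genes. The median scaled PC1 of this list in myotubes was 0.68, and 203 of the 1724 A bins of myotubes were members. The share of all genes is therefore not a matched background. Col4a1 and Col4a2, the paired basement membrane collagen genes, share the bin chr8:11000001-11500000, which was 0.95 in myoblasts, 0.29 in myotubes and -0.04 after AraC. The bins of Col3a1, Col5a3 and Lamb1, given above, also changed from A to B, and that of Tnc, at 0.59, 0.35 and 0.0038, ended at the border. The bin of Ccn1, a secreted matrix protein of growing cells, stayed in A at 2.14, 1.91 and 1.51. The bin of Mmp14, a membrane-bound collagenase, differed from the others in that its value was highest in myotubes (0.34, 0.86 and 0.42). None of the 40 matrix genes was in the bins with the highest difference, although 4 of all 43 collagen genes, a set read separately below, were.

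Growth factors and their receptors were in the members in 7 of 33 cases (21.2%), and 2 others were in the bins with the highest difference. For Met, the receptor for hepatocyte growth factor, and its ligand gene Hgf, the bins were 1.03, 0.71 and 0.20 (chr6:17000001-17500000, which also holds the caveolin genes Cav1 and Cav2) and 0.49, 0.17 and -0.25 (chr5:16500001-17000000). Both ligand and receptor were thus in bins with the highest score in myoblasts and the lowest after AraC. The bins of Fgfr1 and Fgfr4, receptors for fibroblast growth factors, were 1.68, 1.43 and 0.99, and 2.50, 2.21 and 1.73, and that of Fgf2 was 1.41, 1.46 and 1.01. The bin of Pdgfc was 0.46, 0.36 and -0.03. Of the TGF-beta, BMP and activin list, 4 of 35 genes were in members (11.4%): Bmp4, Gdf11, Inhba and Ltbp1, the last of which stores latent TGF-beta in the matrix and lay in a bin that changed to B (0.26, 0.33 and -0.04). Of the Wnt and Notch list, 2 of 34 were (5.88%), the co-receptor gene Lrp6 and the Notch ligand gene Jag2.

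**Figure D5:**
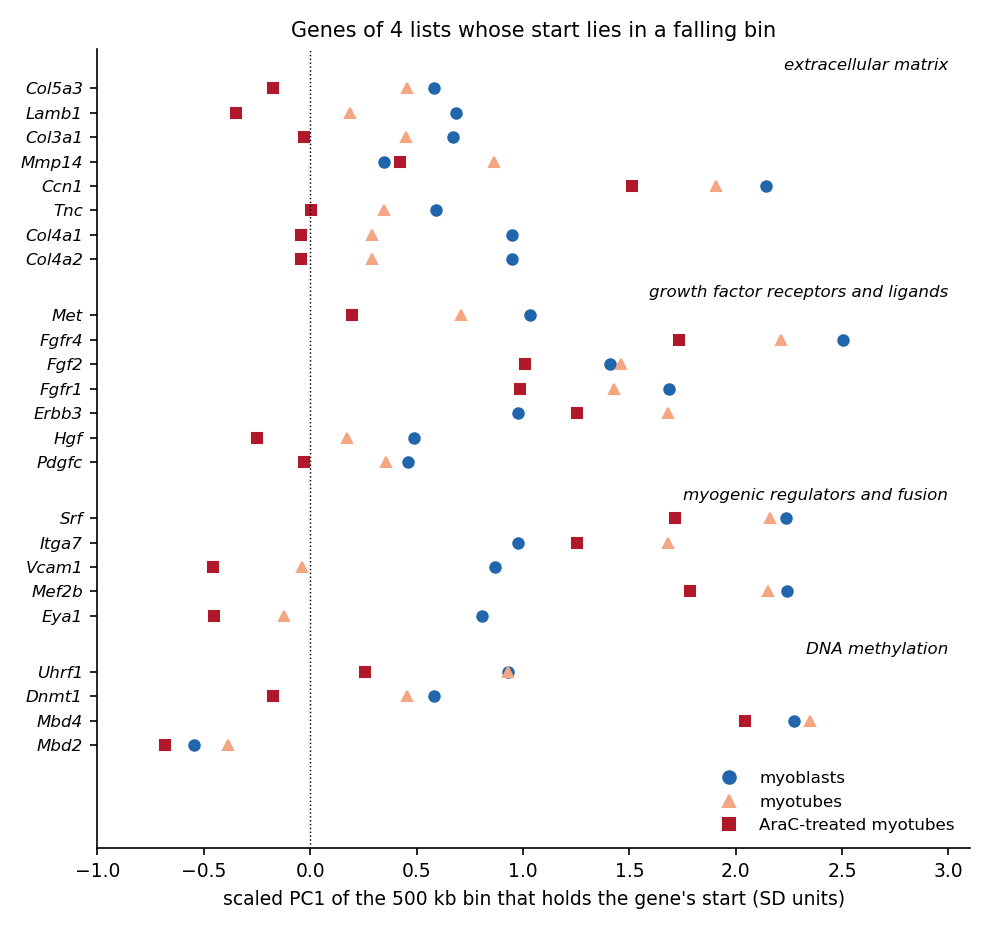
Scaled PC1 (SD units, horizontal axis; circles for myoblasts, triangles for myotubes, squares for AraC-treated myotubes) of the bins that hold the start of a gene from 4 of the lists, shown for the genes in falling bins. Each square lies left of its triangle, as the choice of bins requires, while the circles, which the choice did not use, lie on either side; genes in the same bin, such as Col4a1 and Col4a2, share their values.

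Of the genes for myogenic regulators and fusion, 5 of 31 were in members (16.1%). Vcam1, an adhesion molecule of fusing myoblasts, and Eya1, a co-activator of homeobox factors in muscle progenitors, lay in bins that were A in myoblasts (0.87 and 0.81), B in myotubes (-0.04 and -0.12) and lower after AraC (-0.46 and -0.45). The bins of Srf and Mef2b stayed far inside A. Itga7, the laminin receptor chain of muscle, shares chr10:128500001-129000000 with Cdk2, Erbb3 and Gdf11, and this bin was 0.98, 1.68 and 1.25. Of the 45 genes for the sarcomere and muscle metabolism, 2 were in members (4.44%), Tnnc1, the slow troponin C, and Tpm3, a tropomyosin, both in bins above 1.7 in each condition.

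Of the 57 genes for DNA replication and the cell cycle, 3 were in members (5.26%): Cdk2, Cdk4 and Cdkn1b. The bin of Cdkn1b, chr6:134500001-135000000, was 0.75, 1.08 and 0.60. Of the 14 genes for DNA methylation, 4 were (28.6%), and 3 others were in the bins with the highest difference. Besides Dnmt1 and Uhrf1 they were Mbd4, a DNA glycosylase, at 2.27, 2.35 and 2.04, and Mbd2, a reader of methylated DNA, at -0.55, -0.39 and -0.68. Of the 36 genes for the response to DNA damage and the handling of nucleosides, 5 were in members (13.9%). Gadd45a, a stress gene, lay in a bin that was A in myotubes alone (-0.17, 0.07 and -0.28), and the bin of Nt5e, which makes adenosine outside the cell, was 0.03, 0.37 and -0.05. The bins of the apoptosis gene Bax and of H2afx stayed A. Of the 38 genes for innate sensing and pyroptosis, 1 was in a member (2.63%), Irf7, in a bin with 32 starts that was 1.94, 1.99 and 1.68, and 5 were in the bins with the highest difference. The lists are small and their genes share bins, so the shares are descriptions of these matrices. Each of these lists had a median scaled PC1 above 0 in myotubes, unlike all bins.

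Of the 5 members with the most protein-coding starts, 2 stayed far inside A and 2 changed from A to B. The bin with 37 starts, chr7:45000001-45500000, which includes Bax, Ruvbl2 and Gys1, the muscle glycogen synthase, was 2.49, 2.38 and 2.06, and the bin with 32, that of Irf7 and Hras (chr7:141000001-141500000), has been given. The bin of Hbegf, with 30, was 0.51, 0.40 and 0.11. The bin with 29, chr17:23500001-24000000, with Pkmyt1, a kinase that restrains entry into mitosis, and Tnfrsf12a, the TWEAK receptor, was 0.35, 0.35 and -0.12. The bin with 27, chr15:89000001-89500000, with Mapk11, Mapk12 and Cpt1b, the muscle carnitine palmitoyltransferase, was 0.15, 0.19 and -0.13.

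The selection depends on the scaling. The standard deviation of unscaled PC1 was smaller after AraC than in myotubes on 19 of 19 autosomes. A choice on unscaled PC1 shared 85 of 236 bins with this one (36.0% of each list). Unscaled PC1 was lower after AraC in all 236 members, a count given without a share over all bins. Of these members 203 were A in myotubes, and a smaller spread by itself lowers positive scores. The count therefore does not show that the choice holds on both scalings. A component built from coefficients with other chromosomes shared 197 of 236 (83.5% of each list).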

How the data were processed

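Di-tags had been mapped with HiCUP and Bowtie and processed with HOMER by the authors, who left out spikes of signal, kept pairs near HindIII sites, pooled the 2 replicates of a condition and deposited 1 matrix per condition of score values, correlation coefficients between 500 kb bins. The processing notes name mm10 and, for a mouse line, also GRCh38; the last bins matched the lengths of GRCm38, whose RefSeq sequence and GENCODE gene starts were used. Of 4930 autosomal bins, the 203 with an empty diagonal (0.5 or less) in any matrix were left out. PC1 was the first component of the column-centred block of each chromosome (NumPy 2.4.6). Members and lists were chosen with earlier results of these data known. The bins named are the 12 with the largest decrease, 2 on each side of the limit, the 5 longest runs (of the 13 runs of 3 bins, those 2 with the lowest summed difference), the 5 with the most starts, the 5 lowest profile correlations and those of listed genes. Intervals are exact binomial or, for medians, from order statistics. Other scalings, components, limits and gene sets were tried as alternatives, and the steps were tested on simulated data.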

Additional observations from a re-analysis of the deposited data

How the results depend on the processing

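No paired analysis was possible because both replicates of a condition were pooled in the deposited matrices. Of 105 values recomputed under alternatives, 76 stayed within the 95% interval of the value reported, 29 moved beyond it and 0 changed sign. The absence of sign changes says little, because shares, start counts and GC content cannot be negative. A median change of bins chosen again as the lowest is negative by construction. A diagonal above 0.9 kept the same bins. With PC1 not divided by its SD, the median change was -0.62 for the same members, and for members chosen again it was -0.80, with 1.69% changing from A to B, a myoblast median of 1.76, 1.27% of profile correlations below 0, a change of the core difference of -0.116 (main value -0.0733), 10 starts and 46.9% GC. Quantile normalisation gave 14.8% from A to B, a myoblast median of 0.90 and a core change of -0.0796. The component from other chromosomes gave a median change of -0.347 for the same members and, chosen again, 20.8% and a core change of -0.0837. Ranks gave -0.39 for the same members and, chosen again, -0.40, a core change of -0.0541, 2 starts and 42.2% GC. The lowest 2.5% of bins gave -0.42 and -0.0932, and the lowest 10% gave -0.29, 18.9% from A to B, 0.55 in myoblasts and -0.0592. With both scores above 0.2 in size, 2.22% of the members changed from A to B, beside 0.0741% of all such bins. The choice fixes this contrast, because any bin that crosses so far is a member. Cores of 10% gave -0.0833, division by the SD between chromosomes, added after the data were seen, gave -0.75, and counting all genes gave 11 starts. Leaving out chr 3, also added later, kept the 7 results within their intervals. The smaller median change with the wider choice, and the larger with the narrower, follow from their construction. The median changes of unscaled PC1, the core change divided by the SD and the count of all genes are other measures than their intervals. Their place among the 29 therefore says nothing about stability. The cause of the remaining shifts was not tested.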

Other observations

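Gene families found by the start of their names were read in the same way, beside the 7.43% of all protein-coding genes that lie in the 236 bins. Of the 95 ribosomal protein genes, 13 were in members (13.7%), in 10 bins, among them Rpl13a in the bin with 37 starts. Of 71 cadherin and protocadherin genes, 10 were (14.1%), of which 9 belong to the alpha protocadherin cluster in 1 bin. Of 43 collagen genes, 6 were, adding Col8a1 (0.23, 0.07 and -0.28 in myoblasts, myotubes and AraC-treated myotubes) and Col17a1 (0.0021, 0.20 and -0.09), both in bins that changed from A to B. Of 378 Zfp zinc finger genes, 24 were (6.35%), and of 1127 olfactory receptor genes, 19 were (1.69%), in 5 bins. Of 34 chemokine genes, 2 were (5.88%), of 79 potassium channel genes 3 (3.80%), and of 60 Serpin genes 1 (1.67%). No member held any of the 67 replication-dependent histone genes, 258 vomeronasal receptor genes, 53 keratin genes or 39 Hox genes. The bins with the highest difference held 17 keratin, 15 vomeronasal receptor and 9 Hox genes, and no histone gene. Over the 39 Hox genes the median difference of their bins was -0.11. Those bins also held 29 olfactory receptor, 23 Zfp, 6 potassium channel, 3 chemokine and 2 ribosomal protein genes, but no Serpin or cadherin gene. Genes of a family often share a bin, so these shares rest on few regions. Families also differ in compartment, with a median scaled PC1 in myotubes of 1.17 for ribosomal protein genes and -0.76 for olfactory receptor genes.

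The position along the chromosome differed between the members and the bins with the highest difference: the median distance from the first base was 57.5 Mb in the members, 66.8 Mb in all bins and 84.5 Mb in the bins with the highest difference. Mouse autosomes carry the centromere at that end. The value mixes chromosomes of different length and has no test.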
